A study of Homo sapiens with 54 samples.

Results

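The genes described here are the FOS and JUN families of the AP-1 transcription factors: FOS, FOSB, FOSL1 and FOSL2, and JUN, JUNB and JUND. They are 7 of the 58870 genes in the table, found by their symbols. The family was chosen on measured values, namely on the sign of its log2 fold changes over the CP14 doses. The CP14 values are therefore given as a description with no test.

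The study used A549 human lung cancer cells that carried either an empty vector or a vector for USP18, a protease that removes the ubiquitin-like modifier ISG15. Each population received DMSO as vehicle or a compound known by a code for 48 h before RNA was extracted. Empty-vector cells made up 9 groups: vehicle, 2 doses of CP2 (2 and 5 µM), 3 doses of CP14 (1, 2.5 and 5 µM) and the same 3 doses of CP18. The same 9 treatments were given to the cells with the USP18 vector, called USP18 cells below, which makes 18 groups of 3 libraries and 54 libraries in all. The labels do not decode CP2, CP14 or CP18. The paper reports RNA sequencing with β-lapachone, and which code stands for it is not stated. Its figures give the dose as 2.5 µM, at which CP14 and CP18 were given and CP2 was not. Its list of genes regulated by β-lapachone has FOSB 2.47-fold lower, without naming the cells compared. In empty-vector cells here FOSB was 2.47-fold lower with 2.5 µM CP14 and 2.26-fold lower with 2.5 µM CP18. Each vector stands for 1 engineered population, so the vector and anything else in which these populations differ cannot be told apart.

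AP-1 is a dimer of basic leucine zipper proteins that binds the sequence TGA(C/G)TCA and related cyclic AMP response elements. JUN proteins pair with each other or with FOS proteins, whereas FOS proteins need a JUN partner, so the make-up of the pool sets which dimers can form. FOS, FOSB, JUN and JUNB are classic immediate early genes, transcribed within minutes of growth factor, stress or kinase signals, whereas JUND is broadly and steadily expressed and FOSL1 is known in lung cancer cells for its dependence on RAS and ERK signalling.

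The label of the cells was checked against markers. Of the 8 markers of epithelial cancer cells all had counts, with ALDH1A1 the most abundant, and their summed level ran from 24000 to 24600 CPM (counts scaled by library total) in empty-vector and from 16800 to 17200 CPM in USP18 vehicle libraries. EPCAM and KRT19 added little to it, with medians over the 54 libraries of 3.59 and 15.6 CPM (of TMM-scaled totals), against 7260 CPM for ALDH1A1. The sum was lower with 5 µM CP14, from 15200 to 15600 CPM in empty-vector and from 9470 to 10100 CPM in USP18 cells, and its part in the values below was not tested. Of 4 markers of alveolar type II cells, SFTPA1 and SFTPB were at 0 in all 54 libraries, and SFTPC and NKX2-1 at 0 in 18 and 8. Their sum was from 0.185 to 0.332 CPM in empty-vector and from 0.288 to 0.491 CPM in USP18 vehicle libraries, and highest with 5 µM CP14 in USP18 cells, from 0.479 to 0.779 CPM (NKX2-1 the most abundant). The T cell gene CD3E was at 0 in all libraries. The 4 leukocyte markers summed to at most 4.03 CPM in any library (CD14 the most abundant; from 0.0519 to 0.266 CPM with 5 µM CP14 in USP18 cells) and the 4 fibroblast markers to at most 16.6 CPM (COL1A1). The fibroblast sum was from 12.2 to 15.1 CPM in empty-vector and from 5.11 to 5.86 CPM in USP18 vehicle libraries, and from 7.07 to 7.39 CPM and from 4.30 to 4.67 CPM with 5 µM CP14. The part of these sums in the values below was not tested. USP18 itself averaged 10.8 CPM in empty-vector and 1307 CPM in USP18 vehicle libraries. In USP18 cells it was at 2047 CPM with 5 µM CP14 and between 981.3 and 1271 CPM in the other treated groups, and its part in the values below was not tested. Levels of USP18 and of the genes below are CPM of TMM-scaled totals.

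Expected counts summed to between 16673228 and 25609062 a library (median 19701304). Every member had counts in all 54 libraries, from 85 for FOSB at its lowest to 4868 for FOSL2 at its highest, and all 7 passed the filter on low counts in every fit. FOSB lies wholly within ERCC1, and JUNB within HOOK2, on the opposite strand. Whether the counting used the strand is not given, so values of FOSB and JUNB are uncertain to that extent. Expected counts of FOSB, JUNB, ERCC1 and HOOK2 were exactly whole in all 54 libraries, as were 83.3% of all values above 0. What this says of reads shared between these genes was not tested. In vehicle libraries ERCC1 averaged 77.6 CPM in empty-vector and 85.3 CPM in USP18 cells, and HOOK2 averaged 11.4 and 6.10 CPM.

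The promoters are shown because several members moved together in some of the comparisons that follow. In others they moved apart. With 5 µM CP14 in USP18 cells the log2 fold changes were -1.27 for FOS, 1.74 for FOSB and 0.78 for FOSL2. A link between sequence and level was not tested. The RefSeq promoters used here, on GRCh38.p14, covered 6 of the 7 genes, and FOSL1 was not among them. The stretches are the 110 bases before each start, 5′ to 3′ on the gene's strand: FOS chr14:75278718-75278827 (+), FOSB chr19:45467886-45467995 (+), FOSL2 chr2:28392748-28392857 (+), JUN chr1:58784048-58784157 (-), JUNB chr19:12791376-12791485 (+) and JUND chr19:18281623-18281732 (-). Capitals mark TGACGT, the core of a cyclic AMP response element, on either strand, and in JUN the related TGACATCA.
FOS: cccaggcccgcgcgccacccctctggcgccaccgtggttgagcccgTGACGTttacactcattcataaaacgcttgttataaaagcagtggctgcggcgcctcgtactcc
FOSB: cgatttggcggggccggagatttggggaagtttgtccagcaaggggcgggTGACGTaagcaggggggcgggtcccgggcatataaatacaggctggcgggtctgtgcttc
FOSL2: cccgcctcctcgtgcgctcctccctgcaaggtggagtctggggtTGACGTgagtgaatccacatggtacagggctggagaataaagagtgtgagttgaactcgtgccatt
JUN: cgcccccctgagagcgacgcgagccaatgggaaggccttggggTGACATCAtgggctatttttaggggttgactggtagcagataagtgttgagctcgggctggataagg
JUNB: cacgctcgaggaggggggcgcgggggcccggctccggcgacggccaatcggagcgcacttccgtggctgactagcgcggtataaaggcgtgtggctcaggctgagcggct
JUND: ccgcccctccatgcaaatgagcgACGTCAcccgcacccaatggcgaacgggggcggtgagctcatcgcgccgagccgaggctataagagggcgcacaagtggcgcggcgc

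TGACGT started at -64 in FOS, -60 in FOSB and -66 in FOSL2, at nearly the same distance from the start in the 3 genes. JUND held it at -87 on the reverse strand, and within a full TGACGTCA from -200 to -193, upstream of the stretch shown. JUN held TGACATCA from -67 to -60, a motif added to the search after the sequence had been seen. The AP-1 motif TGANTCA was found in FOSL2 alone, from 5 to 11 past the start, and JUNB held none of the 4 motifs. Of 35116 promoters of 300 bases, 7.98% held TGACGT, 7.71% TGANTCA, 2.61% TGACATCA and 1.85% TGACGTCA on either strand, with TGACGTCA always counted under TGACGT too. A match describes letters, not a bound site.

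**Figure D1:**
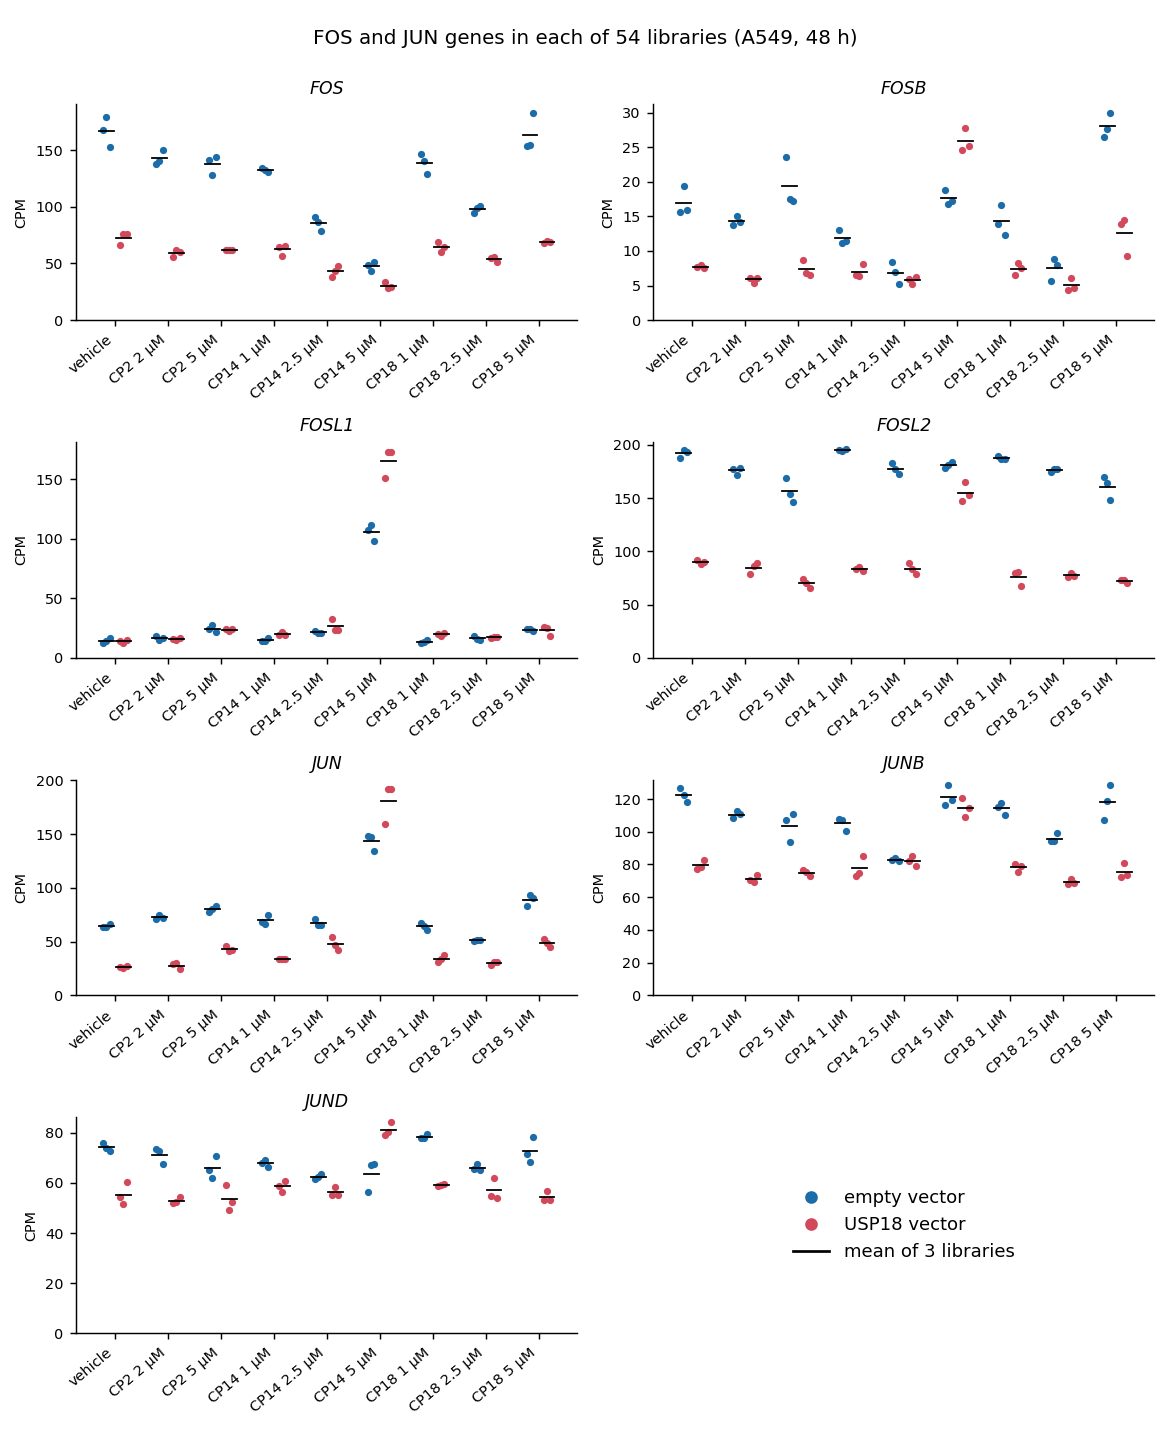
Level of each FOS and JUN gene in all 54 libraries, by treatment and vector, with the mean of the 3 libraries of each group. FOSL1 and JUN had their highest means, 165.5 and 181.1 CPM, with 5 µM CP14 in USP18 cells, where FOS had its lowest, 30.4 CPM.

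FOS encodes the founding FOS protein, c-Fos. Its vehicle libraries held 168, 179 and 153 CPM in empty-vector cells and 66.3, 75.8 and 76.3 CPM in USP18 cells. With rising CP14 the empty-vector groups averaged 132.6, 85.4 and 47.5 CPM and the USP18 groups 62.4, 43.0 and 30.4 CPM. FOS was thus lower at each CP14 dose than at the dose before it in each vector, the sole member with that course. Its log2 fold changes over vehicle were -0.33 ± 0.06, -0.97 ± 0.07 and -1.81 ± 0.07 with the empty vector (± SE, n = 3 libraries a group here and below) and -0.23 ± 0.06, -0.76 ± 0.08 and -1.27 ± 0.07 in USP18 cells. At 5 µM the libraries held 48.5, 43.1 and 51.0 CPM and 33.2, 28.6 and 29.3 CPM, all below every vehicle library of the same vector. CP18 gave another course: empty-vector means were 138.8 CPM at 1 µM, 97.8 CPM at 2.5 µM and 163.7 CPM at 5 µM, and the last overlapped vehicle. In order of level, the 8 empty-vector groups other than 5 µM CP14 lay above all USP18 groups. The closest groups across that gap, USP18 vehicle at 72.8 CPM and 2.5 µM CP14 in empty-vector cells at 85.4 CPM, did not overlap. Of the 17 pairs of neighbours in the order of the 18 groups, 11 overlapped.

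FOSB encodes a close relative of c-Fos that also has a shorter splice form. Vehicle libraries held 15.6, 19.4 and 16.0 CPM in empty-vector cells and 7.61, 7.95 and 7.56 CPM in USP18 cells. FOSB turned over the CP14 doses. In empty-vector cells its means were 11.9, 6.88 and 17.6 CPM, so the 2 lower doses lay below all vehicle libraries and 5 µM (18.8, 16.8 and 17.3 CPM) lay within their range. In USP18 cells they were 7.01, 5.77 and 25.9 CPM, with 24.7, 27.7 and 25.2 CPM at 5 µM, above every vehicle library of either vector. The log2 fold changes were -0.51 ± 0.10, -1.30 ± 0.13 and 0.05 ± 0.09 with the empty vector and -0.15 ± 0.12, -0.42 ± 0.14 and 1.74 ± 0.09 in USP18 cells. CP18 had a similar turn in level: empty-vector means were 14.3, 7.52 and 28.0 CPM at 1, 2.5 and 5 µM, and USP18 means 7.41, 5.02 and 12.6 CPM. The highest group, 5 µM CP18 in empty-vector cells (26.5, 27.7 and 29.9 CPM), overlapped the next, 5 µM CP14 in USP18 cells. The 9 lowest groups, from 5.02 to 7.71 CPM, overlapped their neighbours throughout. Part of any FOSB value may come from reads of ERCC1, whose level with 5 µM CP14 was 92.4 CPM in empty-vector and 101.4 CPM in USP18 cells.

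FOSL1 encodes FRA1, a FOS protein without the transactivation domain of c-Fos. Vehicle libraries held 12.6, 14.4 and 16.2 CPM in empty-vector and 14.4, 12.4 and 15.3 CPM in USP18 cells, which overlapped. Its 5 µM CP14 libraries held 107.6, 111.2 and 98.3 CPM in empty-vector cells and 150.8, 173.0 and 172.7 CPM in USP18 cells. These 2 groups stood apart from each other and from the 16 others, whose means lay between 13.6 and 26.6 CPM. The log2 fold changes were 0.04 ± 0.10, 0.57 ± 0.12 and 2.86 ± 0.08 over the CP14 doses with the empty vector and 0.50 ± 0.10, 0.92 ± 0.12 and 3.55 ± 0.08 in USP18 cells. From its lowest to its highest group mean FOSL1 spanned 12.2-fold, the widest of the 7 genes. The highest of those 16 was 2.5 µM CP14 in USP18 cells, and the groups with 5 µM CP2 or CP18 came next, from 23.0 to 24.5 CPM, and overlapped each other.

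FOSL2 encodes FRA2, which like FRA1 lacks a strong transactivation domain. Vehicle libraries held 188, 195 and 193 CPM in empty-vector and 91.7, 87.6 and 89.5 CPM in USP18 cells. Vector set the order of its groups almost wholly: all 9 empty-vector means lay from 156.4 to 195.1 CPM and 8 USP18 means from 70.2 to 89.6 CPM. The exception was 5 µM CP14 in USP18 cells, with 147.1, 164.6 and 152.9 CPM, which overlapped the lowest empty-vector groups. Log2 fold changes over the CP14 doses were 0.02 ± 0.03, -0.12 ± 0.04 and -0.09 ± 0.04 with the empty vector and -0.10 ± 0.03, -0.10 ± 0.04 and 0.78 ± 0.04 in USP18 cells. At 5 µM all 3 empty-vector libraries (178.6, 180.8 and 183.6 CPM) lay below vehicle and all 3 USP18 libraries above it.

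JUN encodes c-Jun, which JNK kinases phosphorylate and which binds its own promoter. Vehicle libraries held 63.5, 63.3 and 66.3 CPM in empty-vector and 26.5, 25.8 and 27.2 CPM in USP18 cells. At 5 µM CP14 they held 148.3, 147.0 and 134.6 CPM in empty-vector and 159.6, 192.0 and 191.7 CPM in USP18 cells. USP18 cells thus had the lowest JUN group with vehicle and the highest with 5 µM CP14, 26.5 ± 0.72 and 181.1 ± 18.7 CPM (± SD), a span of 6.84-fold. Log2 fold changes over the CP14 doses were 0.11 ± 0.04, 0.06 ± 0.06 and 1.15 ± 0.06 with the empty vector and 0.35 ± 0.05, 0.86 ± 0.07 and 2.77 ± 0.07 in USP18 cells. No CP14 group mean of JUN was below that of its vehicle. The top groups, namely 5 µM CP14 in USP18 and in empty-vector cells and 5 µM CP18 (88.9 CPM) and CP2 (80.2 CPM) in empty-vector cells, did not overlap their neighbours. Of 17 pairs of neighbours, 10 overlapped.

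JUNB encodes a JUN protein that activates less strongly than c-Jun on many promoters. Vehicle libraries held 126.5, 122.6 and 118.0 CPM in empty-vector and 77.4, 78.5 and 82.4 CPM in USP18 cells. In empty-vector cells CP14 gave a dip and a return, with means of 105.2, 83.0 and 121.4 CPM, and the last overlapped vehicle. In USP18 cells the means were 77.8, 82.0 and 114.8 CPM, and at 5 µM (120.4, 109.1 and 114.8 CPM) all libraries lay above vehicle. The log2 fold changes were -0.22 ± 0.05, -0.56 ± 0.04 and -0.01 ± 0.04 against -0.04 ± 0.05, 0.05 ± 0.04 and 0.52 ± 0.05. With 2.5 µM CP14 the vectors overlapped (82.7, 84.1 and 82.1 CPM against 82.3, 85.0 and 78.8 CPM), unlike with vehicle. The whole span was 1.77-fold, and 15 of 17 pairs of neighbours overlapped. HOOK2, the gene around JUNB, had log2 fold changes of 0.08 ± 0.11 and 0.49 ± 0.12 with 5 µM CP14 in empty-vector and USP18 cells.

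JUND encodes the JUN protein that resting cells usually hold most steadily, and it spanned the least, 1.54-fold. Vehicle libraries held 76.0, 73.9 and 72.9 CPM in empty-vector and 54.2, 51.5 and 60.4 CPM in USP18 cells. At 5 µM CP14 they held 56.4, 67.1 and 67.7 CPM in empty-vector cells, all below vehicle, and 79.2, 80.2 and 84.4 CPM in USP18 cells, all above. Log2 fold changes over the CP14 doses were -0.13 ± 0.05, -0.25 ± 0.05 and -0.22 ± 0.06 against 0.08 ± 0.05, 0.02 ± 0.05 and 0.55 ± 0.06. The order of vectors thus turned: JUND was lower in USP18 than in empty-vector libraries with vehicle and higher with 5 µM CP14. Of 17 pairs of neighbours, 15 overlapped.

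**Figure D2:**
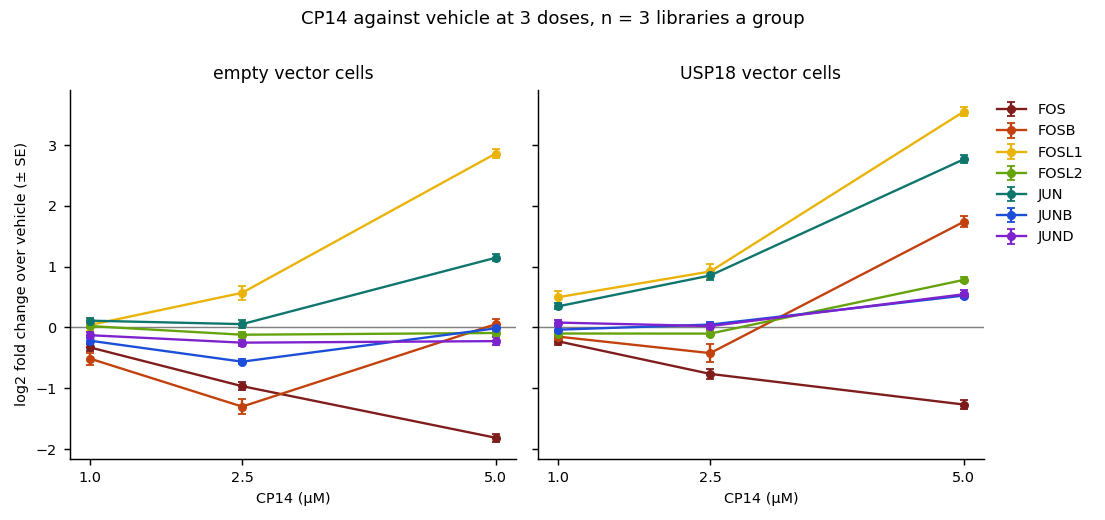
Log2 fold change of each FOS and JUN gene over vehicle at 1, 2.5 and 5 µM CP14 in each vector, with its SE. At 5 µM in USP18 cells FOS was at -1.27 and the other 6 genes between 0.52 (JUNB) and 3.55 (FOSL1).

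Over the CP14 doses, the number of the 7 genes with a log2 fold change above 0 went from 3 at 1 µM to 2 at 2.5 µM and 3 at 5 µM in empty-vector cells. In USP18 cells it went from 3 to 4 to 6. Of all genes tested, 8068 of 15797, 7853 of 15827 and 8045 of 15947 were above 0 in empty-vector cells. The numbers for USP18 cells were 7866, 8062 and 8090. FOSB changed sign between 2.5 and 5 µM in both vectors. FOSL2 changed sign between the same doses in USP18 cells and between 1 and 2.5 µM in empty-vector cells, where its 1 µM libraries overlapped vehicle. JUNB went from -0.04 through 0.05 to 0.52 in USP18 cells, while JUN and FOSL1 stayed above 0 and FOS below 0 at every dose. The response in USP18 cells minus that in empty-vector cells at 5 µM was 1.68 ± 0.12 for FOSB, 1.62 ± 0.09 for JUN, 0.87 ± 0.06 for FOSL2 and 0.77 ± 0.09 for JUND on the log2 scale. For FOSL1 it was 0.69 ± 0.12, for FOS 0.55 ± 0.10 and for JUNB 0.54 ± 0.06. These differences are described and were not tested.

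Which members made up the pool can be read per kilobase of exon, a scale that depends on the length taken for each gene. That length was the merged exons of all annotated transcripts, 3186 bases for FOS with 10 transcripts and 1830 bases for JUNB with 1. Which transcripts these cells used was not measured. A gene whose transcripts are shorter than its merged exons has too low a share, so the order of genes within a group is uncertain. In empty-vector cells with vehicle the 7 genes summed to 213.0 CPM per kb, of which JUNB held 31.4%, FOS 24.5%, JUND 18.1%, FOSL2 12.6%, JUN 8.35%, FOSL1 3.59% and FOSB 1.43%. In USP18 cells with vehicle the sum was 123.6 CPM per kb, with JUNB at 35.1%, JUND at 23.2% and FOS at 18.5%. With 5 µM CP14 the sums were 238.3 CPM per kb in empty-vector and 278.4 CPM per kb in USP18 cells, the 2 highest of the 18 groups. FOSL1 made up 23.5% and 31.5% of these sums, and JUN 16.6% and 17.9%. FOS made up 6.27% and 3.43%. In USP18 cells with 5 µM CP14, FOSL1 was thus the most abundant transcript of the family per kb, ahead of JUNB at 22.6%, whereas with vehicle it stood at 6.02%. A share of summed RNA says nothing of protein or of dimers, which were not measured.

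**Figure D3:**
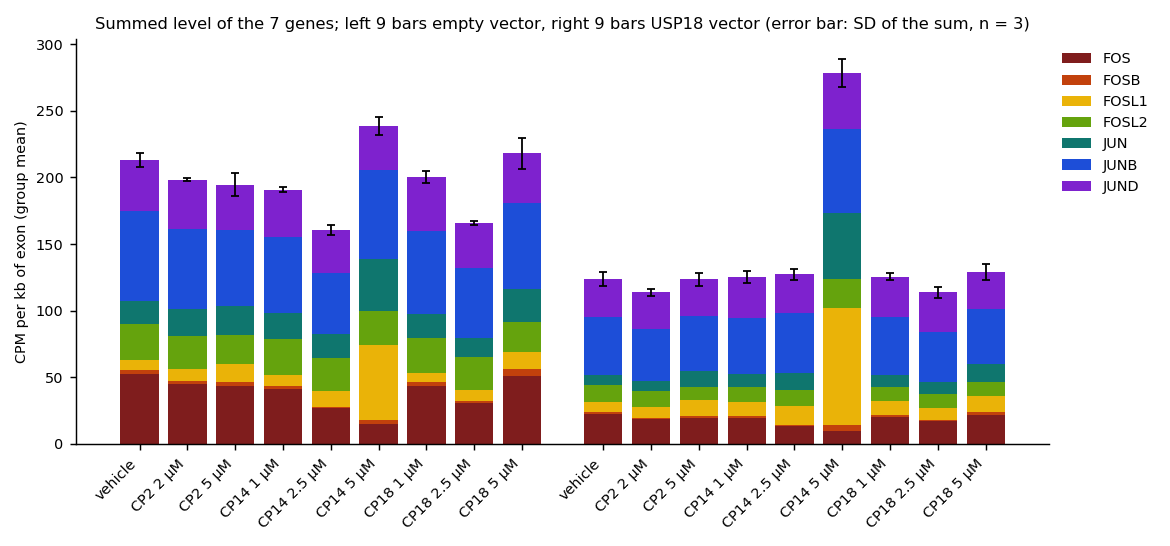
Summed level of the 7 genes per kilobase of exon in each group, split by gene, with the SD of the sum. The sum was 213.0 CPM per kb in empty-vector and 123.6 CPM per kb in USP18 cells with vehicle, and 238.3 and 278.4 CPM per kb with 5 µM CP14.

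With vehicle, 6 of the 7 genes were lower in USP18 than in empty-vector cells past the test, an adjusted p below 0.05 by edgeR over all genes tested. All genes had 28.7% called lower and 29.0% called higher, so most of the 15252 genes tested moved in this comparison. This comparison and those of CP18 and CP2 with vehicle below use the vehicle libraries of the CP14 values on which the family was chosen, so they are not independent of that choice. FOS fell by 1.19 on the log2 scale (SE 0.05, adjusted p = 2.3e-12) and JUN fell by 1.28 (SE 0.05, adjusted p = 1.8e-13). FOSB fell by 1.13 (SE 0.10, adjusted p = 1.7e-08) and FOSL2 by -1.10 as a log2 fold change (SE 0.03, adjusted p = 1.5e-15). These 4 genes passed 2-fold. JUNB at -0.62 ± 0.04 (adjusted p = 7.4e-11) and JUND at -0.42 ± 0.05 (adjusted p = 8.7e-07) fell less. FOSL1 did not pass (-0.04, 95% interval -0.25 to 0.16, adjusted p = 0.74), and its direction turned without empty-vector replicate 3 (0.06) or USP18 replicate 2 (0.04). HOOK2, around JUNB, fell too (-0.90, adjusted p = 2.6e-06), while ERCC1, around FOSB, rose by 0.14 (adjusted p = 0.0047). In bulk RNA, fewer cells that express a gene and less RNA of it per cell cannot be told apart.

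With 1 µM CP18 in empty-vector cells edgeR passed 0 of the 7 genes, where 0.209% of all genes rose and 0.159% fell. Without adjustment 3 members had p below 0.05 (FOS, FOSB and JUNB), and DESeq2 passed 1, FOS, whose log2 fold change was -0.26 ± 0.06 by edgeR (adjusted p = 0.057). FOS also passed without the filter on counts (8.7e-10), with at least 10 counts throughout (0.03), with replicate number as a block (0.048), without vehicle replicate 3 (adjusted p = 0.024) or without CP18 replicate 1 (adjusted p = 0.028). In USP18 cells 3 members passed: FOSL1 rose by 0.48 ± 0.10 (adjusted p = 0.003), JUN rose by 0.37 ± 0.06 (adjusted p = 6.0e-04) and FOSL2 fell (-0.24 ± 0.05, adjusted p = 0.0024), beside 7.74% of all genes higher and 8.00% lower. JUN libraries there held 31.3, 34.0 and 37.2 CPM, all above vehicle. FOS (-0.17, adjusted p = 0.091) passed without vehicle replicate 1 (0.033) or CP18 replicate 1 (0.039), without the filter (0.0014) and with the 2 groups fitted alone (0.049), and JUND (0.10, adjusted p = 0.19) passed without vehicle replicate 3 (0.03).

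The response to 1 µM CP18 differed between vectors for FOSL1, by 0.57 ± 0.14 (interaction, edgeR adjusted p = 0.022), and for JUN, by 0.38 ± 0.08 (adjusted p = 0.0092), beside 7.19% of all genes. FOSL1 lost its pass without any of 4 libraries: empty-vector vehicle replicate 3 (adjusted p = 0.077), USP18 vehicle replicate 2 (0.068), empty-vector CP18 replicate 2 (0.061) or USP18 CP18 replicate 3 (0.063). FOSL2 (-0.21, adjusted p = 0.054) passed by DESeq2 (0.024), with RLE scaling (0.047), without the filter (0.0061), with at least 10 counts throughout (0.04), and without USP18 CP18 replicate 1 (0.031) or 2 (0.02). JUN kept its pass without each library. Side by side and untested, 1 µM CP14 in USP18 cells gave 0.50 for FOSL1 and 0.35 for JUN, beside 0.48 and 0.37 with 1 µM CP18. USP18 averaged 1038 CPM with 1 µM CP14 and 981.3 CPM with 1 µM CP18 in these cells, against 1307 CPM with vehicle. Whether the 1 µM groups of USP18 cells share a shift apart from the compounds was not tested.

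With 2.5 µM CP18 most of the family fell in empty-vector cells. FOS libraries held 94.4, 98.7 and 100.5 CPM against 153 to 179 CPM with vehicle, and FOSB libraries 5.71, 8.87 and 8.00 CPM against 15.6 to 19.4 CPM. Neither gene overlapped its vehicle. In all, 5 of 7 members fell and none rose, beside 3.63% of all genes lower and 2.34% higher: FOS by -0.77 ± 0.05 (edgeR adjusted p = 3.8e-08), FOSB by -1.17 ± 0.13 (1.4e-05), JUNB by -0.35 ± 0.04 (7.0e-06), JUN by -0.33 ± 0.04 (8.5e-05) and FOSL2 by -0.13 ± 0.03 (0.011) as log2 fold changes. FOSB was the 1 member past 2-fold. The fall of FOSL2 rested on single libraries, since it did not pass without vehicle replicate 2 (adjusted p = 0.06) or CP18 replicate 1 (0.059), nor in a fit of all 54 libraries (0.16). JUND, a member that did not pass, was at -0.17 ± 0.05 (adjusted p = 0.064) and passed without the filter (0.0063), with at least 10 counts throughout (0.048) and with the 2 groups fitted alone (0.018).

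In USP18 cells 4 members fell and 1 rose with 2.5 µM CP18, beside 7.00% of all genes lower and 7.19% higher. FOS fell (-0.43 ± 0.06, edgeR adjusted p = 5.0e-05), as did FOSB (-0.63 ± 0.15, 0.0064), FOSL2 (-0.21 ± 0.03, 2.1e-04) and JUNB (-0.20 ± 0.04, 0.0016). JUN rose by 0.20 ± 0.05 (adjusted p = 0.01), from 25.8 to 27.2 CPM with vehicle to 28.7, 31.3 and 31.4 CPM. The rise of JUN was lost without vehicle replicate 2 (adjusted p = 0.053) or CP18 replicate 3 (0.054), and with all 54 libraries fitted together (0.12). FOSL1 (0.29 ± 0.10, adjusted p = 0.056) passed without the filter (0.018), with at least 10 counts throughout (0.041) and with the 2 groups fitted alone (0.021). JUN thus moved in opposite directions in the vectors, and its interaction passed by edgeR (0.54 ± 0.07, adjusted p = 8.2e-04), the 1 member to do so beside 0.197% of all genes. DESeq2 gave this interaction of JUN no adjusted p. In edgeR it kept its pass without each library in turn. The interaction of FOS (0.33, adjusted p = 0.12) passed without empty-vector vehicle replicate 3 (0.024) and without the filter (7.4e-06).

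With 5 µM CP18 the same 4 members passed in both vectors. In empty-vector cells FOSB rose by 0.73 ± 0.12 (edgeR adjusted p = 8.4e-04), FOSL1 by 0.71 ± 0.12 (9.6e-04) and JUN by 0.47 ± 0.06 (7.2e-05), and FOSL2 fell (-0.25 ± 0.05, 0.0025), beside 4.09% of all genes higher and 4.30% lower. In USP18 cells FOSB rose by 0.69 ± 0.14 (adjusted p = 0.0023), FOSL1 by 0.70 ± 0.12 (4.4e-04) and JUN by 0.87 ± 0.06 (2.7e-08), and FOSL2 fell (-0.33 ± 0.05, 2.0e-04), beside 4.32% higher and 6.40% lower. In empty-vector cells replicate 3 differed from its mates by a chi-square per gene of 8.82 and 11.1, against 4.66 between them, and the 4 calls held without it. JUN libraries held 83.5, 93.1 and 90.1 CPM in empty-vector and 52.3, 48.9 and 45.0 CPM in USP18 cells, all above vehicle. FOS did not pass at this dose in either vector (-0.02 ± 0.07 and -0.09 ± 0.07, adjusted p = 0.9 and 0.5), unlike FOSB, so these 2 genes, which fell together at 2.5 µM, had different values at 5 µM. The doses were not tested against each other. For the interaction at 5 µM edgeR passed 0 of 7 members beside 0.268% of all genes, with 1 member, JUN, at an unadjusted p below 0.05 and passed by DESeq2. JUN was at 0.40 ± 0.08 (adjusted p = 0.051). It also passed with RLE scaling (0.041), without the filter (8.7e-04), with at least 10 counts throughout (0.039), with all 54 libraries fitted together (0.038), and without empty-vector CP18 replicate 2 (0.032), empty-vector CP18 replicate 3 (0.019) or USP18 CP18 replicate 3 (0.022).

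**Figure D4:**
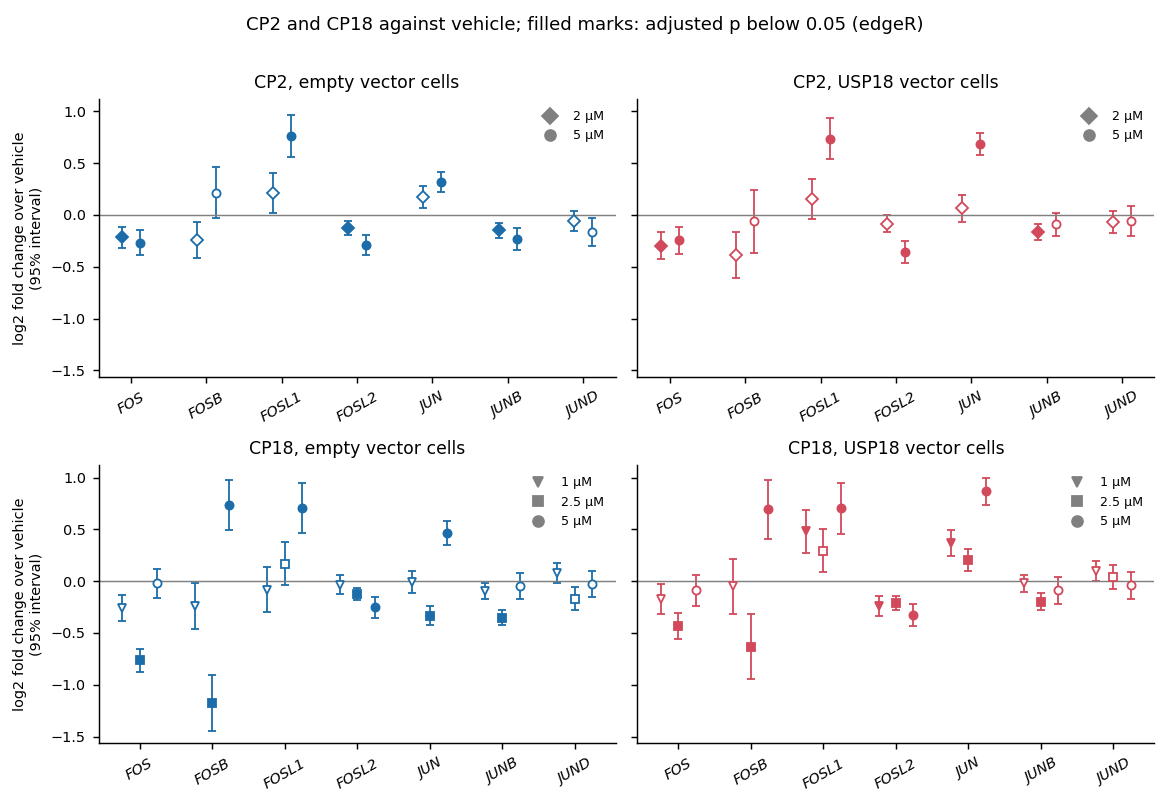
Log2 fold change over vehicle with CP2 and CP18 in each vector, with 95% intervals and filled marks for genes past the test. FOSB went from -1.17 at 2.5 µM to 0.73 at 5 µM CP18 in empty-vector cells.

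CP2 at 2 µM gave small changes. In empty-vector cells FOS (-0.22 ± 0.05, edgeR adjusted p = 0.025), JUNB (-0.15 ± 0.03, 0.026) and FOSL2 (-0.13 ± 0.03, 0.042) fell, 3 of 7 beside 1.04% of all genes lower and 0.803% higher. JUN, at 0.17 ± 0.05 (adjusted p = 0.086), passed as a rise by DESeq2 (0.026), without the filter (0.019) and with the 2 groups fitted alone (0.041). The falls were fragile: FOSL2 lost its pass without any single library (lowest adjusted p 0.059, without vehicle replicate 1). FOS lost it without vehicle replicate 1 (0.095) or 2 (0.17) or CP2 replicate 1 (0.14) or 2 (0.098), and by DESeq2 (0.057). JUNB lost it without vehicle replicate 1 (0.15) or 2 (0.082) or CP2 replicate 1 (0.13) or 3 (0.079), and none of the 3 passed in a fit of all 54 libraries. In USP18 cells FOS (-0.30 ± 0.06, adjusted p = 0.014) and JUNB (-0.16 ± 0.04, 0.038) fell, 2 of 7 beside 0.816% lower and 0.316% higher. FOS lost its pass there without vehicle replicate 2 (0.095) or 3 (0.11) or CP2 replicate 1 (0.12). JUNB lost it without any library (0.051 to 0.23) but CP2 replicate 3 and with replicate number as a block (0.056), and neither passed with all 54 libraries fitted together (0.061 and 0.32). FOSB (-0.39, adjusted p = 0.098) passed without the filter (0.046). No member passed as an interaction by edgeR or by DESeq2 (0 of 7, and 0 at an unadjusted p below 0.05), beside 0.0569% of all genes.

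FOSL1 and JUN rose with 5 µM CP2. FOSL1 libraries held 24.3, 27.2 and 21.9 CPM in empty-vector and 24.1, 22.9 and 23.8 CPM in USP18 cells, all above vehicle, and it rose by 0.77 ± 0.10 (edgeR adjusted p = 4.1e-05) and 0.74 ± 0.10 (2.5e-05). JUN libraries held 77.1, 80.5 and 83.1 CPM and 45.6, 40.8 and 42.1 CPM, and it rose by 0.32 ± 0.05 (1.5e-04) and 0.69 ± 0.05 (3.6e-08). Neither gene overlapped its vehicle in either vector. FOS fell (-0.27 ± 0.06, adjusted p = 0.0045, and -0.24 ± 0.06, 0.011), as did FOSL2 (-0.29 ± 0.05, 5.1e-04, and -0.36 ± 0.05, 6.5e-05), and JUNB passed in empty-vector cells (-0.23 ± 0.05, 0.0058). That made 5 of 7 in empty-vector cells, 2 higher beside 5.31% of all genes and 3 lower beside 6.83%, and 4 of 7 in USP18 cells, 2 higher beside 8.65% and 2 lower beside 10.3%. The CP2 libraries of empty-vector cells differed from each other by a chi-square per gene of 7.20 to 8.91, and the 5 calls there held without each of them. FOS in USP18 cells lost its pass without vehicle replicate 2 (0.052) or 3 (0.056), and JUND in empty-vector cells (-0.17, 0.11) passed without CP2 replicate 3 (0.034), without the filter (0.017) and with all 54 libraries fitted together (0.045). The response of JUN differed between vectors by 0.37 ± 0.07 (interaction, adjusted p = 0.012), 1 of 7 beside 0.920% of all genes. That pass was lost without USP18 vehicle replicate 2 (adjusted p = 0.057), and with all 54 libraries fitted together (0.065).

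CP18 and CP2 shared a single dose, 5 µM, so 1 pair of compounds was compared, once in each vector. EdgeR passed 0 of the 7 genes in either vector, beside 0.0313% of all genes in empty-vector and 0.0251% in USP18 cells, which were 5 and 4 genes of 15962. Without adjustment 5 members had p below 0.05 in empty-vector and 3 in USP18 cells, and DESeq2 passed 0 in each. FOSB was higher with CP18 by 0.52 (95% interval 0.25 to 0.80, adjusted p = 0.39) and by 0.76 (0.44 to 1.08, adjusted p = 0.084). Without the filter FOSB passed in both vectors (1.2e-05 and 3.4e-09) and FOS in empty-vector cells (4.0e-04). In USP18 cells FOSB passed when all 54 libraries were fitted (adjusted p = 0.015), when the 2 groups were fitted alone (0.044) and without CP18 replicate 3 (0.93 on the log2 scale, 0.0098). The intervals for FOSL1 were -0.28 to 0.17 and -0.25 to 0.19, and those for FOSL2 -0.07 to 0.15 and -0.08 to 0.15. JUN was at 0.15 (0.04 to 0.27) and 0.19 (0.06 to 0.31), FOS at 0.25 (0.11 to 0.39) and 0.16 (0.01 to 0.31). JUNB was at 0.19 (0.06 to 0.32) and 0.01 (-0.13 to 0.14), and JUND at 0.14 (0.00 to 0.28) and 0.02 (-0.12 to 0.17). A missed threshold does not show that the compounds act alike. Side by side and untested, 2 µM CP2 and 2.5 µM CP18 differ in dose: FOSB was at -0.24 and -1.17 in empty-vector cells and at -0.39 and -0.63 in USP18 cells.

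**Figure D5:**
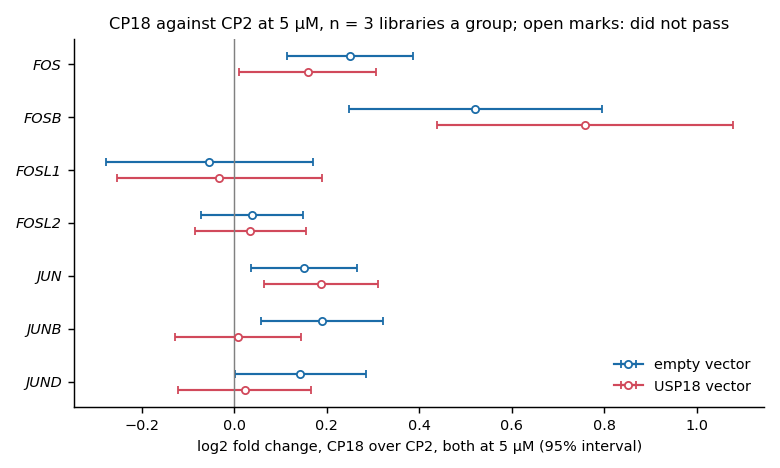
Log2 fold change of CP18 over CP2 at 5 µM for each FOS and JUN gene, with its 95% interval, in each vector. FOSB had the largest values, 0.52 in empty-vector and 0.76 in USP18 cells.

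Other basic leucine zipper factors can pair with JUN proteins or bind related sites. Of 12 tested with vehicle, 4 were higher and 3 lower in USP18 cells by edgeR, beside 29.0% and 28.7% of all genes: MAFF (1.85 ± 0.10, adjusted p = 2.0e-11), a small MAF protein without a transactivation domain, and BATF3 (0.93, 2.0e-05) were highest, and JDP2 (-0.76, 5.6e-07), a repressor that dimerizes with JUN, and MAFK (-0.19, 9.0e-06) lowest. ATF3, a stress-induced partner of JUN proteins, ran from 6.50 to 8.93 CPM with vehicle in empty-vector and from 11.2 to 11.9 CPM in USP18 cells. At 5 µM CP14 it ran from 51.6 to 58.5 CPM and from 120.9 to 139.0 CPM, at log2 fold changes of 2.86 and 3.53, with MAFF next at 2.18 and 1.91. At that dose 11 of the 12 listed factors tested in every fit were above 0 in each vector, beside 8045 and 8090 of 15947 genes tested, with medians of 0.70 and 0.63 where the median of all genes was 0.01 in each. With CP18, MAFK fell in all 6 comparisons, for example by -0.65 at 5 µM in USP18 cells (adjusted p = 4.3e-07). ATF3 fell at 2.5 µM (-0.52, adjusted p = 0.012) and rose at 5 µM (0.68, adjusted p = 0.0012) in empty-vector cells. In USP18 cells ATF3 averaged 11.4 CPM with vehicle, 11.1 CPM at 2.5 µM and 13.0 CPM at 5 µM, and did not pass. There 0 listed factors rose and 1 fell at each of these doses. Of all genes 7.19% and 4.32% were higher and 7.00% and 6.40% lower. MAFK fell with CP2 as well, by -0.44 and -0.76 at 5 µM in empty-vector and USP18 cells (adjusted p = 2.7e-06 and 8.3e-10).

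MAP kinases and the SRF and CREB factors act on FOS and JUN promoters. With vehicle 3 of 17 were higher and 5 lower in USP18 cells by edgeR, beside 29.0% and 28.7% of all genes. MAP2K4 (0.33, adjusted p = 1.4e-06), a kinase above JNK, and ELK3 (0.30, 1.8e-06), a partner of SRF, were the largest rises. MRTFA (-0.68, 9.0e-11) and MRTFB (-0.45, 4.6e-08), coactivators of SRF, were the largest falls. At 5 µM CP14 these genes had a median log2 fold change of 0.04 with the empty vector and -0.02 in USP18 cells, with ELK3 at 0.88 and 1.32 and MRTFB at -0.57 and -0.59. With 1 µM CP18 in USP18 cells 2 of 17 fell and 0 rose, beside 8.00% and 7.74% of all genes, among them MRTFB (-0.26, adjusted p = 0.0052). With 5 µM CP2 in USP18 cells 2 rose and 2 fell, beside 8.65% and 10.3%, and ELK3 was among the rises (0.19, 0.0041). RNA levels say nothing of the activity of these kinases.

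The phosphatases and inhibitors that MAP kinases induce and that restrain them were divided. With vehicle 7 of 13 were higher and 5 lower in USP18 cells, beside 29.0% and 28.7% of all genes: DUSP6 (2.26, edgeR adjusted p = 1.8e-13), an ERK phosphatase, and SPRY2 (1.64, 5.0e-11), an inhibitor of receptor signalling, rose, while DUSP1 (-1.23, 4.3e-15) and DUSP5 (-0.99, 3.0e-12) fell. DUSP5 with 5 µM CP14 was at 1.46 in empty-vector and 3.16 in USP18 cells, from means of 68.7 and 34.5 CPM with vehicle to 190.1 and 308.9 CPM, and the list's medians were 0.48 and 0.71. With 2.5 µM CP18 DUSP1 fell in both vectors (-0.46, adjusted p = 4.2e-07, and -0.36, 7.5e-06), among 3 and 6 of 13 genes that fell, beside 3.63% and 7.00% of all genes, and 0 that rose. With 5 µM CP2 in USP18 cells 7 fell and 1 rose, beside 10.3% and 8.65% of all genes, with DUSP16 (-0.56, 5.4e-09) and DUSP4 (-0.43, 5.1e-08) the largest falls. In empty-vector cells 2 fell and 0 rose with 5 µM CP2, beside 6.83% and 5.31%. With 5 µM CP18, 1 fell in empty-vector and 5 in USP18 cells, beside 4.30% and 6.40% of all genes. There 0 rose in either vector, beside 4.09% and 4.32%.

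Of other immediate early genes, 13 of 23 were lower and 7 higher in USP18 than in empty-vector cells with vehicle by edgeR, beside 28.7% and 29.0% of all genes, with EGR2 (-1.93, adjusted p = 0.001) and EGR1 (-1.31, 2.4e-15), zinc finger factors, at the bottom and PHLDA1 (1.42, 8.5e-17) and CCN2 (0.95, 1.3e-12) at the top. EGR1 ran from 227.7 to 247.0 CPM in empty-vector and from 91.4 to 98.8 CPM in USP18 cells. With 2.5 µM CP18 in empty-vector cells, 13 of 24 fell and 0 rose, beside 3.63% and 2.34% of all genes, NR4A1 (-0.79, adjusted p = 1.8e-06) and EGR1 (-0.74, 7.8e-08) the most. In USP18 cells 9 fell and 0 rose, beside 7.00% and 7.19%, NR4A2 (-1.09, 1.7e-07) and NR4A3 (-0.95, 4.4e-05) the most. EGR1 passed the interaction at that dose (0.76, adjusted p = 1.1e-04). At 5 µM CP18, 7 rose and 4 fell in empty-vector cells, beside 4.09% and 4.30% of all genes, with CCN2 (0.52, 9.2e-06) and CCN1 (0.51, 6.1e-05), secreted matrix proteins, the largest rises, and 4 rose and 9 fell in USP18 cells, beside 4.32% and 6.40%, with EGR1 at 0.81 (1.6e-08) and NR4A3 at -1.56 (1.5e-06). With 5 µM CP2, 6 rose and 6 fell in empty-vector cells, beside 5.31% and 6.83% of all genes, and 6 rose and 9 fell in USP18 cells, beside 8.65% and 10.3%. The nuclear receptors NR4A3 (-0.99, adjusted p = 6.8e-04) and NR4A2 (-1.57, 5.7e-11) fell the most in the respective vectors. Between CP18 and CP2 at 5 µM, EGR1 passed in both vectors (0.41, adjusted p = 0.0013, and 0.38, 0.0086) and CCN2 in empty-vector cells (0.34, 0.0089), all higher with CP18.

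At 5 µM CP14 the immediate early genes went apart, as FOS and JUN did. NR4A2 was at -2.50 in empty-vector and -3.07 in USP18 cells and NR4A1 at -1.87 and -1.84, while KLF2 was at 1.55 in empty-vector and KLF6 at 2.60 in USP18 cells. Over the 23 genes tested in every fit the medians were 0.13 and 0.85. ARC had the highest log2 values, 2.66 and 3.26, from at most 9 counts in any vehicle library. At 1 and 2.5 µM CP14 the medians of the 23 genes were -0.14 and -0.19 with the empty vector and -0.10 and 0.03 in USP18 cells.

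Textbook targets of AP-1 were looked at last: 24 of a list of 25 were matched by symbol, and TGFB1 was not matched and so not analysed. With vehicle 10 of 18 were higher and 7 lower in USP18 cells by edgeR, beside 29.0% and 28.7% of all genes, with AREG (1.26, adjusted p = 1.4e-14), an EGF receptor ligand, among the rises and IL11 (-0.68, 7.1e-06), a cytokine, among the falls. AREG averaged 53.6 CPM in empty-vector and 128.4 CPM in USP18 cells with vehicle, and 146.0 and 403.2 CPM with 5 µM CP14. Of the 18 targets tested in every fit, 18 had log2 fold changes above 0 at this dose in empty-vector and 16 in USP18 cells, beside 8045 and 8090 of all 15947 genes tested, with medians of 1.33 and 1.32. At 1 and 2.5 µM the medians of these 18 were 0.07 and 0.16 with the empty vector and 0.03 and 0.30 in USP18 cells. IL6, an inflammatory cytokine, was near the limit of detection, with 0 to 3 counts a library in empty-vector and 0 in USP18 vehicle libraries, against 13 to 16 and 0 to 6 counts with 5 µM CP14.

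With 5 µM CP18 or CP2 in empty-vector cells, 7 of 18 targets rose and 0 fell by edgeR, beside 4.09% and 5.31% of all genes higher and 4.30% and 6.83% lower with the respective compounds. In USP18 cells 6 rose with each, beside 4.32% and 8.65%, while 2 fell with CP18 and 5 with CP2, beside 6.40% and 10.3%, CXCL8 the most (-0.50, adjusted p = 0.003, and -0.76, 2.1e-05). CXCL8, a neutrophil chemokine, differed between vectors in its response to each (interaction -1.08, adjusted p = 0.0017, with CP18 and -1.08, 7.6e-04, with CP2). With 2.5 µM CP18 5 targets rose in each vector, beside 2.34% of all genes in empty-vector and 7.19% in USP18 cells, and 0 and 2 fell, beside 3.63% and 7.00%.

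With vehicle, the median log2 difference of USP18 from empty-vector cells was 0.37 for the other leucine zipper factors, -0.02 for the kinases and inputs, 0.39 for the phosphatases and feedback genes, -0.23 for the other immediate early genes and 0.25 for the targets. The median of all genes was -0.01.

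Genes most like each member over the 18 group means were sought among 14987 genes by correlation of log2 CPM. The groups share vectors and compounds, so these are descriptions with n = 18 groups and no p. FOS was most like PC (r = 0.971), IGFBP2 (0.958) and NXN (0.956), and FOSB most like EGR2 (0.935), KLF10 (0.891) and CPTP (0.890). FOSL1 was most like ODC1 (0.985), TNFRSF10A (0.984) and INA (0.984), and FOSL2 most like F11R (0.993), FAM167A (0.990) and ZNF629 (0.990). None of these 12 genes is a member of the family. For JUN they were RHOB (0.976), SP6 (0.966) and AKAP2 (0.965), for JUNB DUSP1 (0.948), ZFP36 (0.943) and NUAK2 (0.929), and for JUND RND1 (0.914), HES4 (0.914) and UAP1L1 (0.912). Within the family the highest value was that of JUNB with JUND (0.889), followed by FOSL2 with JUNB (0.876) and FOSB with JUNB (0.856). The lowest was that of FOS with FOSL1 (-0.610), and FOS with JUN was at 0.06.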

How the data were processed

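RNA sequencing values of 54 libraries of A549 cells were analysed. The authors deposited 1 table of each gene's expected count from RSEM, not scaled between libraries, and 94.0% of its values are exactly whole, zeros included (83.3% of values above 0). The submitters' processing notes name cutadapt 1.18, STAR 2.7.0f and RSEM 1.3.1. Labels describe poly(A) capture with a stranded kit, whereas the methods describe ribosomal depletion, and the methods name a mouse annotation for RSEM although the identifiers are human. Groups and replicates were taken from the labels. The labels do not state where replicates came from. The paper speaks in general of independent repeats without naming these libraries, so a p measures the spread between these samples. Within groups the chi-square per gene between libraries ran from 1.80 to 11.1 over 54 pairs, and 34 of 54 libraries were most like their own group. The largest values were in empty-vector cells: 5 µM CP18 replicate 3 was at 8.82 and 11.1 from its mates, against 4.66 between them, and the 3 pairs of 5 µM CP2 ran from 7.20 to 8.91.

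Expected counts were rounded and tested with edgeR 4.0.16 in R 4.3.3 (limma 3.58.1): TMM scaling, filterByExpr (minimum count 10, minimum total 15), quasi-likelihood tests and Benjamini-Hochberg adjustment over all genes tested. Each fit held vehicle and 1 compound at 1 dose in both vectors (12 libraries); vehicle alone (6 libraries) and CP18 with CP2 and vehicle (18 libraries) had fits of their own. A gene passed at an adjusted p below 0.05. CPM use TMM-scaled totals (sums of markers use unscaled totals), and lengths are merged exons of GENCODE v44. Tables and figures were made with Python 3.11.15, numpy 2.4.6, pandas 2.3.3 and matplotlib 3.10.9. A group with 3 counts or fewer in every library counts as at the limit of detection.

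Named genes were the 7 members in every comparison, from each list up to 2 of the largest rises and falls among genes past the test (for CP14, among genes tested), and the 3 genes most like each member among those with a mean of at least 1 CPM in some group. ATF3, EGR1 and MAFK were followed further after their values were seen. The lists were other AP-1 and small MAF factors, MAP kinases and SRF or CREB inputs, MAP kinase phosphatases and feedback genes, other immediate early genes, AP-1 targets, and markers of cell types. The members and lists were chosen with earlier results of these data known. The analysis was repeated with RLE scaling, without the filter on low counts, with genes of 10 counts or more throughout, with replicate number as a block, with DESeq2 1.42.0, in a fit of all 54 libraries, in a fit of the 2 groups compared, and without each library in turn.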

Additional observations from a re-analysis of the deposited data

Results flagged for a closer look

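Groups of 3 libraries are too small to be screened for an outlying sample, so all items concern a difference between the vectors. By the interaction test of edgeR, the response of USP18 cells minus that of empty-vector cells passed for JUN with 5 µM CP2 (0.37 on the log2 scale), for FOSL1 with 1 µM CP18 (0.57), and for JUN with 1 µM CP18 (0.38) and 2.5 µM CP18 (0.54).

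With 5 µM CP14 the libraries of FOSL2 and JUND moved in opposite directions in the vectors, all 3 below vehicle in empty-vector cells and all 3 above it in USP18 cells. The log2 fold changes were -0.09 and 0.78 for FOSL2 and -0.22 and 0.55 for JUND. These differences were not tested.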

How the results depend on the processing

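No gene that passed turned direction, and every alternative set down was run. Many values near 0 turned with a library left out, in every kind of comparison. Among them were FOS with 5 µM CP18 in empty-vector cells (-0.02 to at most 0.04), FOSB with 5 µM CP2 in USP18 cells (-0.06 to 0.01), FOSL1 between vectors with vehicle (-0.04 to at most 0.06), and with CP14 FOSL1 at 1 µM in empty-vector cells (0.04 to at lowest -0.05), JUNB at 1 µM in USP18 cells (-0.04 to 0.00), JUND at 2.5 µM in USP18 cells (0.02 to -0.03) and JUNB at 5 µM in empty-vector cells (-0.01 to 0.02). RLE turned 1 sign, that of the interaction of FOSL1 with 5 µM CP18 (-0.01). With vehicle, 6 genes passed under every alternative and without each library. With 5 µM CP18, 4 passed in each vector throughout. Other counts moved by over 1.5 times. A fit of all 54 libraries gave 0 in place of 3 and of 2 for 2 µM CP2 in empty-vector and USP18 cells, and 0 in place of 1 for the interaction of 5 µM CP2. The replicate block gave 1 in place of 2 for 2 µM CP2 in USP18 cells and 1 in place of 0 for 1 µM CP18 in empty-vector cells, where no filter, at least 10 counts and DESeq2 also gave 1. For the interaction of 2.5 µM CP18 no filter gave 2 and DESeq2 0 in place of 1, since DESeq2 gave JUN no adjusted p. For that of 5 µM CP18, RLE, no filter, at least 10 counts, DESeq2 and the fit of all 54 libraries each gave 1 in place of 0. Between CP18 and CP2, no filter gave 2 in empty-vector cells, and no filter, the fit of all 54 libraries and the fit of the 2 groups each gave 1 in USP18 cells, in place of 0. Leaving out 1 library gave 0 to 2 with 2 µM CP2 in either vector, 5 to 6 and 3 to 4 with 5 µM CP2 in empty-vector and USP18 cells, and 0 to 1 for its interaction. It gave 0 to 1 and 3 to 4 with 1 µM CP18 and 1 to 3 for its interaction, 4 to 5 in each vector with 2.5 µM CP18 and 1 to 2 for its interaction, and 0 to 1 for that of 5 µM. Between CP18 and CP2 it gave 0 in empty-vector and 0 to 1 in USP18 cells. For CP14, the number of genes above 0 ran from 2 to 3, 2 to 2 and 3 to 4 in empty-vector cells and from 3 to 4, 3 to 4 and 6 to 6 in USP18 cells over the doses. All 294 CP14 values of single genes under other settings stayed within the SD between replicates of the main value. The 252 with a library left out did so too, but leaving out 1 of 3 libraries can hardly move a mean by that SD. Those 252 therefore say nothing of how firm the CP14 values are. Of 532 values of single genes against vehicle or between vectors under other settings, 503 kept their side of the test and their direction, 18 gained a pass, 9 lost it and 2 had no adjusted p. With a library left out 412 of 462 were the same, 6 gained, 28 lost and 16 turned. For interactions 186 of 210 and 373 of 420 were the same, and between CP18 and CP2 87 of 98 and 74 of 84. The cause was not tested. The alternatives for interactions with a library left out, for CP18 against CP2, for the CP14 counts and for list genes tested in every fit were chosen after seeing the data. Replicate numbers did not pair the libraries: correlations of deviations ran from -0.12 to 0.06 over 48 pairs with 0 above 0.1. Low counts limit FOSB most, with 85 at its lowest.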
